A study of Mus musculus with 6 samples.

Results

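The 9 genes described here encode calmodulin and other small calcium-binding proteins, and they are Calm2, Calm3, S100a5, Pcp4l1, Pcp4, Calb2, Hpca, Ncald and Vsnl1. They were taken by name from the 55341 genes of the table, for their known roles in calcium signalling. The material was 6 individual olfactory sensory neurons, the nerve cells with which the nose detects odours, taken from C57BL/6 mice at 6 weeks of age. Each neuron was frozen after a physiological recording and made into 1 CEL-Seq2 library, a method that primes RNA at the poly(A) tail and therefore counts mainly the 3′ ends of transcripts. All 6 cells carry the same labels and form 1 group, here called cells 1 to 6 after their titles, with no treatment or genotype named. The labels tie no cell to an animal or to a recorded response, so no p-value is given, and the 95% intervals cover counting error only.

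The cells differed in depth, with totals between 8613 counts in cell 1 and 122546 in cell 3, and cells 1 and 6 (11725 counts) were the shallowest. Levels are given as CPM, each gene's counts scaled to a common library total, so 1 count was worth between 8.16 CPM in cell 3 and 116 CPM in cell 1. A gene without a count is given with the level that 3 counts would have had in that cell. All 9 of the marker genes listed for mature olfactory neurons were found and 6 of them were counted in every cell, with summed levels between 16426 and 31116 CPM. Genes of glands and secretory cells summed to between 85.3 CPM in cell 6 and 19781 CPM in cell 2, and those of red blood cells to between 171 CPM in cell 6 and 12610 CPM in cell 4. Mitochondrial genes took between 4.40% of the counts in cell 4 and 14.4% in cell 1.

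In these neurons odours raise cyclic AMP, which opens a cyclic nucleotide-gated channel and lets calcium into the cilia. Calmodulin binds the entering calcium through its EF hands and feeds back on that channel, on cyclic nucleotide breakdown and on kinases and phosphatases. S100 proteins and neuronal calcium sensors use the same EF-hand fold, calretinin (Calb2) acts mainly as a buffer, and Pcp4 and its relative Pcp4l1 carry the IQ motif known from calmodulin-binding proteins. S100a5, Pcp4l1 and Calb2 have been described as varying with the activity of olfactory neurons.

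S100a5 and Pcp4l1 were the most abundant of the 9 genes, so the sequences around their start sites are shown. They come from RefSeq on GRCm38.p6 and hold 250 bases before the start and 30 from it, read 5′ to 3′ on the strand of the gene. S100a5 lies at chr3:90608272-90608551 on the plus strand and Pcp4l1 at chr1:171196239-171196518 on the minus strand. Capitals mark the words CCAAT, on either strand (ATTGG when reversed), and TATAAA.
S100a5: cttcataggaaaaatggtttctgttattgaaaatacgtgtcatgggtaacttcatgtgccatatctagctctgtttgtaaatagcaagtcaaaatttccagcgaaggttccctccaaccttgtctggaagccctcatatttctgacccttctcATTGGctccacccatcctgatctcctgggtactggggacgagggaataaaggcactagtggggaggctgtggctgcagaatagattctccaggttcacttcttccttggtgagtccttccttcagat
Pcp4l1: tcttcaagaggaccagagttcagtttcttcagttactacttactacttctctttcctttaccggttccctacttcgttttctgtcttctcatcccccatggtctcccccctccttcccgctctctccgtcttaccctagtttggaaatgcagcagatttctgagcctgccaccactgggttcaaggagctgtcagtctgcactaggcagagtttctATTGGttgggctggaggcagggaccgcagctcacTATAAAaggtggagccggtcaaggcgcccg

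The reversed CCAAT word began 97 bases before the start of S100a5 and 34 bases before that of Pcp4l1, whose TATAAA word began at the annotated start base. CCAAT was present on either strand in 36.1% of all 32851 RefSeq windows of this length and TATAAA in 13.1%, so neither word is rare. Windows were at hand for 6 of the 9 genes, and CCAAT was found in 3 of these (Pcp4l1, S100a5 and Vsnl1). The cyclic AMP response word TGACGTCA, present in 1.74% of all windows, was in none of the 6 genes, and the same held for the Olf/EBF motif (0.868%) and the homeodomain word TAATTA (5.09%). These are matches of letters in a window and not measured binding.

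Counts were found for 7 of the 9 genes, and 3 of them, Calm2, S100a5 and Pcp4l1, had a count in every cell. Of the 16483 genes with any count, 5.04% were counted in every cell, and of the 3915 genes that averaged at least 50 CPM 21.2%. Hpca and Ncald had no count in any cell, and Pcp4 was counted in cell 4 alone. Per kilobase of exon the median levels ran from S100a5 (18228 CPM per kb) through Pcp4l1 (1042), Calm2 (630), Calm3 (125) and Calb2 (82.2) to Vsnl1 (37.6). Counts of 3′ ends need not grow with length, and the median CPM without the length gave the same order.

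**Figure D1:**
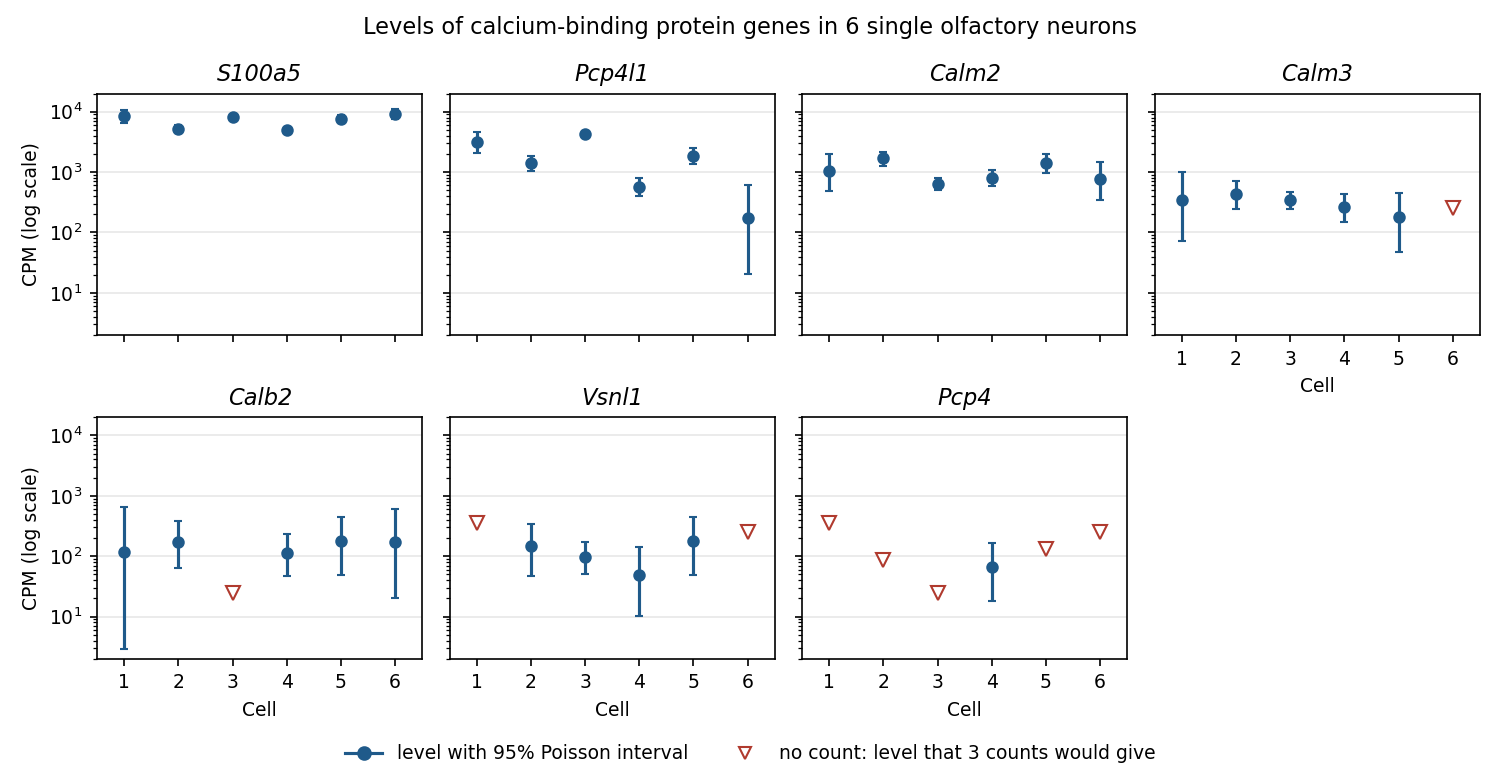
Level of 7 of the 9 genes in each of the 6 cells, in CPM on a log axis; points are levels with exact 95% Poisson intervals, and open triangles mark cells without a count at the level that 3 counts would give. S100a5 stays between 4992 and 9126 CPM, while Pcp4l1 is lowest in cell 6 at 171 CPM and highest in cell 3 at 4333 CPM.

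Calm2 (chromosome 17, 87433412 to 87446935, minus strand, GRCm38) and Calm3 (chromosome 7, 16915379 to 16924114, minus strand) encode the same protein, calmodulin. They had 235 and 80 counts over the cells, and Calm2 was the more abundant in every cell. Of the joint counts of both genes, Calm2 took 75% (exact 95% interval 42.8 to 94.5) in cell 1, 79.5% (68.4 to 88.02) in cell 2 and 65% (55.8 to 73.5) in cell 3. It took 75.4% (63.1 to 85.2) in cell 4, 88.9% (73.9 to 96.9) in cell 5 and 100% (66.4 to 100) in cell 6. The median share was 77.4%, and cell 5 lay above cell 3, the only pair of cells whose intervals did not overlap. Calm3 had none of the 9 joint counts of cell 6, where the same interval allows it a share of up to 33.6%.

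Calm2 itself had 9, 58, 78, 49, 32 and 9 counts in cells 1 to 6, or 1045, 1682, 636, 805, 1421 and 768 CPM. Its highest level, in cell 2, was 2.64-fold (1.85 to 3.76) its lowest, in cell 3. In the order of its levels (cells 2, 5, 1, 4, 6, 3) no neighbours were apart by the interval of their ratio. Over all 15 pairs of cells, that interval lay above 1 in 5. The summed level of gland and secretory genes was 19781, 5194 and 6850 CPM in cells 2, 5 and 1, where Calm2 was higher. It was 378, 85.3 and 963 CPM in cells 4, 6 and 3, where Calm2 was lower. The part of RNA from such cells in the Calm2 levels was not tested.

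Calm3 had 3, 15, 42, 16, 4 and 0 counts, or 348, 435, 343, 263, 178 and 0 CPM. Cells 1 to 5 could not be told apart by their counts. If cell 6 had the level of the other cells pooled, 3.77 counts would have been expected there, little more than the 3 counts taken as the limit of detection. The lower limit of the ratio to cell 6 was 1.22 for cell 2 and 1.04 for cell 3, and it was under 1 for the other cells. For the other cells pooled it was 0.998. Cutting the last 1000 bases of the Calm3 transcripts into 50-base windows, 3.40% of these also occur in the pseudogene Gm5881, which had 17 counts, 13 of them in cell 3. For Calm2 the share was 10.3%, in Gm14480, Gm15720 and Gm7308, which together had the 4 counts of Gm7308, so the counts of Calm2 and Calm3 are uncertain by reads these copies may have taken or given.

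S100a5 encodes a small EF-hand protein of the S100 family and lies on chromosome 3 (90608523 to 90611780, plus strand). It was the most abundant of the 9 genes and ranked 9 among all genes by median CPM. Cells 1 to 6 had 72, 176, 1016, 304, 168 and 107 counts. The levels were 8359 CPM (6541 to 10527) in cell 1, 5105 (4378 to 5917) in cell 2 and 8291 (7789 to 8817) in cell 3. They were 4992 CPM (4446 to 5585) in cell 4, 7458 (6373 to 8675) in cell 5 and 9126 (7479 to 11028) in cell 6. Cells 6, 1, 3 and 5 did not differ beyond counting error and lay above cells 2 and 4, which did not differ from each other either.

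The gap was between cells 5 and 2, at 1.46-fold (1.18 to 1.82), and the highest cell, 6, had 1.83-fold (1.45 to 2.29) the level of the lowest, 4. Spread beyond counting error is given here as a coefficient of variation, the SD over cells with the Poisson part removed, as a percent of the mean. It was 22.8% for S100a5, and 17.1% of the 694 genes averaging 200 CPM or more spread less. This order depends on the scaling: with edgeR's TMM factors the highest cell was 3 and the lowest 1 (2.15-fold), and with DESeq2's size factors likewise (3.33-fold). With TMM cells 1 and 6 (5584 and 5800 scaled counts) lay below cells 2 and 4 (6606 and 6183), and with DESeq2's size factors (4680 and 5330 against 6736 and 6884) they did too. Relative to Omp, the olfactory marker protein of mature olfactory neurons, S100a5 gave 1.04, 0.804, 0.878, 1.07, 1.53 and 1.53 counts per Omp count in cells 1 to 6, a ratio that no scaling changes. By that measure cells 5 (1.19 to 1.96) and 6 (1.12 to 2.10) lay above cells 2 (0.655 to 0.985) and 3 (0.806 to 0.956).

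No other gene of the S100 family on the list had more than 11 counts in all, against 1843 for S100a5. Of 14 family genes listed, 10 had a count, and S100a5 was the only one of them counted in every cell. S100a6 had 10 counts in all, S100a13 had 9 and S100a8 had 3. S100a3 had 2 counts in cell 1, 1 in cell 3, 1 in cell 5 and 7 in cell 6, the last worth 597 CPM. S100b, a marker of olfactory ensheathing glia, had 2 counts, both in cell 4. The glial genes together reached at most 87.0 CPM, and Sox10 and Npy had no count.

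Pcp4l1 encodes a short protein related to Pcp4 and lies on chromosome 1 (171173262 to 171196268, minus strand). It varied most between cells among the 4 members averaging 200 CPM or more. Cells 1 to 6 had 27, 49, 531, 35, 42 and 2 counts. The levels were 3135 CPM (2066 to 4561) in cell 1, 1421 (1051 to 1879) in cell 2 and 4333 (3972 to 4718) in cell 3. They were 575 CPM (400 to 799) in cell 4, 1865 (1344 to 2520) in cell 5 and 171 (20.7 to 616) in cell 6. By CPM cells 3, 1, 5 and 2 lay above cells 4 and 6. Within the first set cell 3 lay above cells 5 and 2 and cell 1 above cell 2 by the interval of the ratio. The place of cell 1 depends on the scaling: with TMM it had 2094 scaled counts, against 1839 and 1888 in cells 2 and 5, and with DESeq2's size factors 1755, against 1875 and 1668.

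Cell 3 had 25.4-fold (6.998 to 210) the Pcp4l1 level of cell 6. That bound is wide because cell 6 had 2 counts, and against cell 4, with 35 counts, the ratio was 7.54-fold (5.35 to 10.9). Between neighbours in the order of levels, the interval of the ratio lay above 1 for cells 2 and 4 (2.47-fold, 1.57 to 3.93) and for no other pair. Over all pairs of cells it did so in 11 of 15, against 8 of 15 for S100a5. Cell 3 stayed highest and cell 6 lowest under the 4 other scalings, with ratios from 23.8-fold without mitochondrial counts to 81.7-fold with DESeq2's size factors and 58.0-fold with TMM.

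A gene was called apart where its highest cell was at least 4-fold its lowest, with Poisson intervals that did not overlap. This held for 1 of the 4 members with a mean of at least 200 CPM, Pcp4l1, and for 234 of all 694 such genes (33.7%), so a difference of this kind was common. Its spread beyond counting error was 80.7%, more than in 77.4% of these genes. Calm2 spread by 32.2% and Calm3 by 43.0%, below the median of all 694 genes (52.9%). The median ratio of highest to lowest cell was 2.24-fold for the 4 members and 3.94-fold for all 694 genes. With DESeq2's size factors 3 members were called (Calm2, Calm3 and Pcp4l1) and 54.6% of all genes, and with TMM 2 members (Calm2 and Pcp4l1) and 45.2%.

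**Figure D2:**
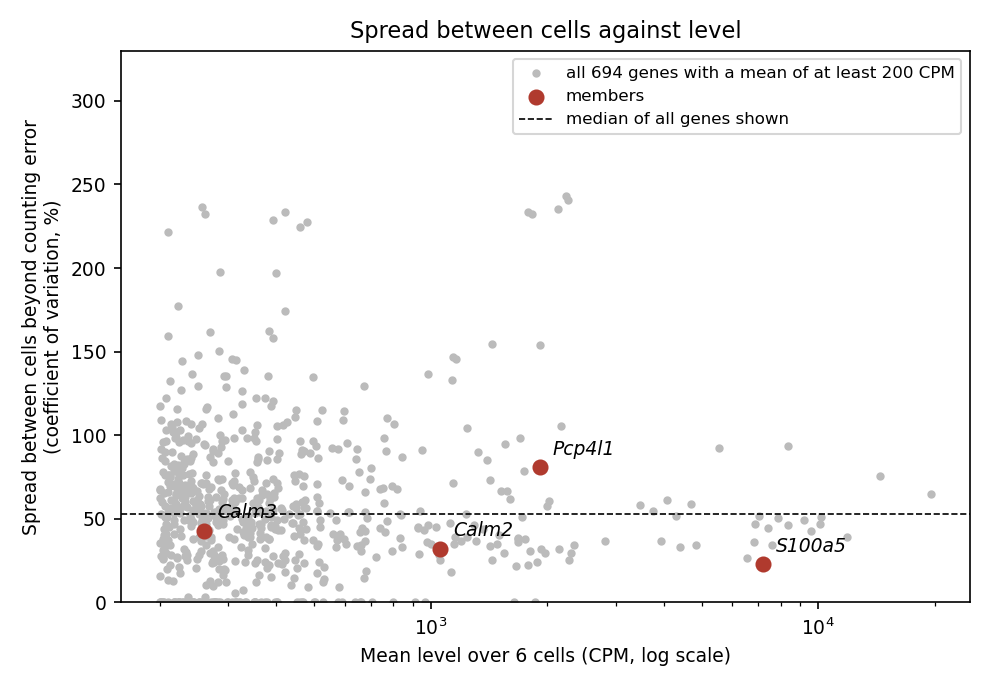
Spread between the 6 cells beyond counting error (coefficient of variation, percent) against mean level (CPM, log axis) for the 694 genes averaging 200 CPM or more, with members in red and the median of all genes (52.9%) as a dashed line. Pcp4l1 lies above the median at 80.7% and S100a5, Calm2 and Calm3 lie below it.

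The ratio of Pcp4l1 to S100a5 within a cell does not depend on depth or scaling. It was 0.375 counts of Pcp4l1 per count of S100a5 (0.232 to 0.591) in cell 1, 0.278 (0.199 to 0.384) in cell 2 and 0.523 (0.470 to 0.581) in cell 3. It was 0.115 (0.0787 to 0.164) in cell 4, 0.250 (0.174 to 0.352) in cell 5 and 0.0187 (0.00223 to 0.0692) in cell 6. Cell 6 lay below every other cell and cell 4 below cells 1, 2, 3 and 5, with no overlap of intervals. The 2 genes linked to activity therefore did not keep a fixed proportion, and by CPM cell 6 had the lowest Pcp4l1 beside the highest S100a5. Over the 6 cells their log2 levels had a Pearson r of 0.09 and a Spearman rho of 0.09.

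**Figure D3:**
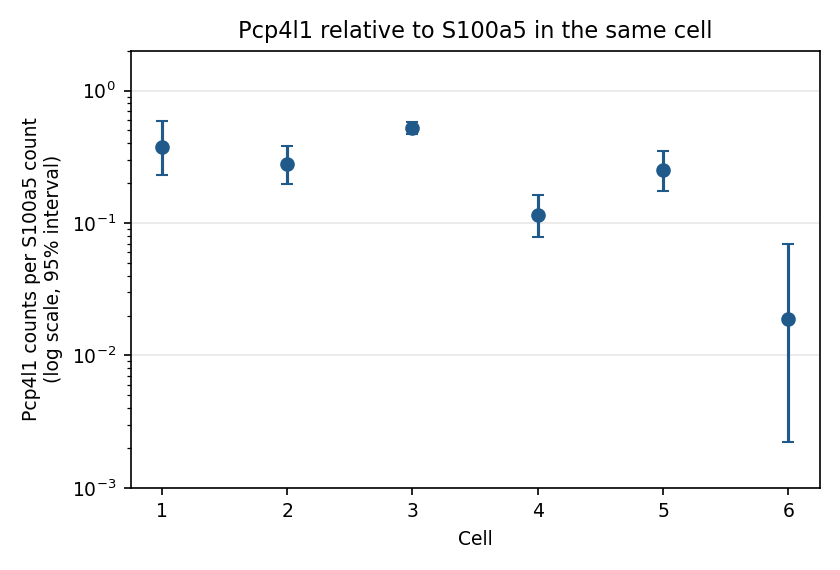
Pcp4l1 counts per S100a5 count in each of the 6 cells on a log axis, with 95% intervals from the counts of both genes. The ratio runs from 0.0187 in cell 6 and 0.115 in cell 4 to 0.523 in cell 3.

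Cells 1 and 2 had Olfr740 as the odorant receptor with most counts, cells 3 and 4 had Olfr741, and for cells 5 and 6 it was Olfr743. These are close relatives whose reads may be exchanged. Cells with the same leading receptor differed in Pcp4l1, which was 2.21-fold (1.33 to 3.60) higher in cell 1 than in cell 2. It was 7.54-fold higher in cell 3 than in cell 4, as above, and 10.9-fold (2.84 to 93.2) higher in cell 5 than in cell 6. For S100a5 the same pairs gave 1.64-fold (1.23 to 2.17) for cell 1 over cell 2 and 1.66-fold (1.46 to 1.89) for cell 3 over cell 4. Cell 6 had 1.22-fold (0.951 to 1.57) the S100a5 level of cell 5, within counting error. The contrast of cells 1 and 2 depends on the scaling: with DESeq2's size factors it turned to 0.936 for Pcp4l1 and 0.695 for S100a5, and with TMM to 1.14 and 0.845. Pcp4l1 stayed higher in cell 3 than in cell 4 (at least 7.48-fold) and in cell 5 than in cell 6 (at least 10.4-fold) under all 4 other scalings.

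By CPM, cell 4, low in Pcp4l1, had the highest summed level of immature neuron genes (5517 CPM, 4943 to 6140) and cell 6 the next highest (4264 CPM, 3165 to 5622). In the other cells that sum lay between 2220 CPM (cell 3) and 3418 CPM (cell 5, 2698 to 4272). The intervals of cells 5 and 6 overlap, and the place of cell 6 depends on the scaling. TMM shifts every gene by -0.65 on the log2 scale in cell 6, by 0.02 in cell 5, by 0.37 in cell 2 and by 0.54 in cell 3. That puts cell 6 below cells 2, 3 and 5 in this sum. Of the 10 genes listed 9 were found, and in cell 4, 7 of these lay at least 2-fold above the mean of the other cells (19.4% of all 3915 genes averaging 50 CPM or more did so) and none below. In cell 6 the list was divided. Gap43, Stmn1 and Dcx lay above (22.5% of all genes), while Marcksl1, Tubb3, Hdac2 and Dpysl3 had no count and lay below (52.5%). There 3 counts would be 256 CPM, above the mean of each of these genes without a count (142 CPM for Marcksl1, the highest). Their 0 counts in cell 6 therefore could not be read. The part of this marker level in Pcp4l1 was not tested.

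Pcp4, itself a regulator of calmodulin's calcium binding, lies on chromosome 16 (96467606 to 96525793, plus strand). It had 4 counts in cell 4, worth 65.7 CPM (17.9 to 168), and none in the other 5 cells. In cell 3, the deepest, 3 counts would be 24.5 CPM, while in cells 1, 2, 5 and 6 they would be between 87.0 and 348 CPM, so these 4 cells could not have shown such a level reliably. Igsf5, which overlaps Pcp4 on the same strand and shares 17.5% of its 50-base windows, had no count.

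The other genes listed as calmodulin-binding peptides and their relatives were sparse. Of the 6 on the list 5 were found, and Pcp4l1 was the only one counted in every cell. Gap43, a growth-cone protein that binds calmodulin, had 0, 6, 1, 13, 5 and 8 counts, or 0, 174, 8.16, 213, 222 and 682 CPM. In cell 1, where it had none, 3 counts would be 348 CPM. Cell 3, deepest and highest in Pcp4l1, thus had 1 count of Gap43, and cell 6, lowest in Pcp4l1, had its highest level. Camk2n1, an inhibitor of calmodulin-dependent kinase, had 26 counts, Camk2n2 had 12 and neurogranin (Nrgn) none.

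Calb2, the gene of calretinin, lies on chromosome 8 (110137502 to 110168210, minus strand). It had 1, 6, 0, 7, 4 and 2 counts in cells 1 to 6, or 116, 174, 0, 115, 178 and 171 CPM. The 5 cells with counts did not differ beyond counting error and cell 3 stood apart, at 0 in the deepest library, where 3 counts would be 24.5 CPM. The other 5 cells together had 145 CPM (88.4 to 223), a rate at which 17.7 counts would have been expected in cell 3. Taking 3 counts as the limit in cell 3, its level there was at least 5.91-fold lower than the pooled level of the other cells. The interval of that ratio, which also covers the counting error of the other cells, has a lower limit of 4.38. Cell 3 was also the cell with the highest Pcp4l1 and Kirrel2. The bound from 3 counts was between 3.32-fold with DESeq2's size factors and 6.01-fold without mitochondrial counts under the 4 other scalings.

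No other calcium buffer was counted in every cell, and 7 of the 10 listed had a count. Necab1 had 19 counts, 14 of them in cell 3 (114 CPM), Calb1 had 7, Scgn 4 and Pvalb 1. By CPM Necab1 was as high in cell 1 (116, from 1 count) as in cell 3. The sum of the list ran from 155 to 444 CPM.

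Some of the neuronal calcium sensors, hippocalcin among them, carry a fatty acid that calcium binding exposes, and these move to membranes on a calcium rise. Hpca (hippocalcin, chromosome 4, 129111570 to 129122036, minus strand) and Ncald (neurocalcin delta, chromosome 15, 37366175 to 37792570, minus strand) had no count. Over all 6 libraries together 3 counts would be 11.5 CPM, and in single cells between 24.5 CPM in cell 3 and 348 CPM in cell 1. A lower level was not detectable at this depth. The genes that overlap them in the annotation also had no count.

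Vsnl1 (visinin-like protein, chromosome 12, 11325242 to 11436613, minus strand) had 0, 5, 12, 3, 4 and 0 counts, or 0, 145, 97.9, 49.3, 178 and 0 CPM. None of the pairs of cells that could be compared differed beyond counting error. Cells 1 and 6 could not be read, since the level of the others pooled would have given 0.820 and 1.13 counts there. Of the 15 sensors on the list 7 were found, and Hpcal1 was the only one counted in every cell, with 3, 3, 14, 13, 6 and 1 counts. Ncs1 had 15 counts, Kcnip4 had 11 and Hpcal4 had 3.

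Each cell was also set against the mean of the other 5 as a log2 ratio of CPM plus 10, for the 6 members with a mean of at least 50 CPM (Calm2, Calm3, S100a5, Pcp4l1, Calb2 and Vsnl1). At least 2-fold above the others lay Vsnl1 in cell 2 (7.94% of all 3915 genes tested did so there), Pcp4l1 in cell 3 (14.4%) and Vsnl1 in cell 5 (18.3%). At least 2-fold below lay Vsnl1 in cell 1 (45.3% of all genes), Calb2 in cell 3 (24.7%), Pcp4l1 in cell 4 (27.2%), and Calm3, Pcp4l1 and Vsnl1 in cell 6 (52.5%). None was above in cell 1 (21.4%), 4 (19.4%) or 6 (22.5%), and none below in cell 2 (34.4%) or 5 (28.2%). The log2 ratio of Pcp4l1 was 1.59 in cell 3, -1.91 in cell 4 and -3.66 in cell 6. Calm2 and S100a5 passed the 2-fold limit in no cell. The calls of Vsnl1 compare levels only, since its counts differed in no pair of cells and its 0 counts in cells 1 and 6 could not be read, as above. The call of Calm3 in cell 6 rests on 0 counts where 3.77 were expected, and the interval of its pooled ratio reached down to 0.998.

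The median log2 ratio of the 6 members was -1.96 in cell 6, where that of all 3915 genes was -1.60. In cell 2 it was 0.69 against -0.51 for all genes, and in cell 4 it was -0.54 against -0.07. The number of genes with a count ran from 2855 in cell 6 and 3058 in cell 1 to 11670 in cell 3, the deepest. Cell 6 had fewer genes than cell 1 although it was deeper (11725 against 8613 counts). The part of gene number and depth in these medians was not tested.

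The targets of calmodulin included the machinery of odour transduction. Of 24 targets listed 18 had a count, and 2 were counted in every cell, the kinase gene Camk2d (6, 10, 63, 13, 18 and 3 counts) and Adcy3, the adenylyl cyclase that makes cyclic AMP in the cilia. Adcy3 had 1509, 435, 1240, 82.1, 311 and 85.3 CPM in cells 1 to 6. It was high in cells 1 and 3 and low in cells 4 and 6, and it was the only 1 of 5 targets with a mean of at least 200 CPM that was called apart (33.7% of all genes). The channel subunit Cnga2 had 929, 348, 734, 296, 533 and 0 CPM. The phosphodiesterase Pde1c, which calmodulin activates, had 464, 203, 922, 328, 488 and 0 CPM. For both genes the 0 in cell 6 is read against 256 CPM, the level of 3 counts there.

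Of the 12 targets with a mean of at least 50 CPM, 6 lay at least 2-fold above the other cells in cell 3 and 2 below. Over all 3915 genes these shares were 14.4% and 24.7%. In cell 6, 1 lay above (22.5% of all genes) and 8 below (52.5%), and in cell 4, 3 lay above (19.4%) and 5 below (27.2%). The 3 above in cell 4 were Camk2b, Camkk2 and the calcineurin subunit Ppp3ca, the last at 558 CPM. In cell 1 there were 4 above (21.4%) and 5 below (45.3%), in cell 2 none above (7.94%) and 3 below (34.4%), and in cell 5 there were 2 above (18.3%) and 4 below (28.2%). Many of the calls below rest on 0 counts. In cell 6 Camk1, Camkk2, Cnga4, Cngb1 and Myo5a had no count and means of at most 193 CPM, under the 256 CPM of 3 counts. In cell 1 all those below had no count and means of at most 259 CPM, where 3 counts would be 348 CPM. These 0 counts could not be read. In cell 3, 7 of 12 lay above with TMM (31.0% of all genes) and 10 of 12 with DESeq2's size factors (46.3%). In cell 6, 10 of 12 lay below with each (62.7% and 66.4% of all genes). The 4 above in cell 1 became none with either. Over the 6 cells the log2 level of Pcp4l1 had a Pearson r of 0.94 with Cnga2 (rho 0.94) and 0.91 with Adcy3 (rho 0.83). It was 0.61 with Omp, and 0.81 and 0.48 with the activity-linked genes Sema7a and Kirrel2. Cell 6 entered with 2 counts of Pcp4l1, 1 of Adcy3 and 0 of Cnga2. These values share the depth of each library.

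The list of calcium pumps, exchangers and release genes covers the clearing of calcium from the cytoplasm, its storage and its return to the cytoplasm. Of 19 listed 12 had a count, and 2 were counted in every cell, the reticulum pump Atp2a2 and the store protein Calr. Atp2a2 had 25 counts (1110 CPM) in cell 5 and 4 counts (116 CPM) in cell 2, a ratio of 9.57, and of the 2 genes averaging 200 CPM or more it was the 1 called apart (33.7% of all genes). Of the 6 with a mean of at least 50 CPM, 5 lay 2-fold below the other cells in cell 4 (27.2% of all genes) and 4 lay 2-fold above them in cell 5 (18.3%). In cell 6, 4 lay below (52.5%), which were Atp2b1, Slc8a1, Canx and Letm1. They had no count there and means of at most 239 CPM, under the 256 CPM of 3 counts, so these could not be read. The exchanger Slc8a1 had 14 counts (622 CPM) in cell 5 and the plasma membrane pump Atp2b1 had 9 (400 CPM). With TMM and DESeq2's size factors the 5 below in cell 4 stayed 5 (21.3% and 20.2% of all genes), and the 4 above in cell 5 became 3 and 2 (16.6% and 10.8% of all genes). Slc8a1 had 1 count in cell 4 (16.4 CPM) and Atp2b1 had 3 (49.3 CPM).

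**Figure D4:**
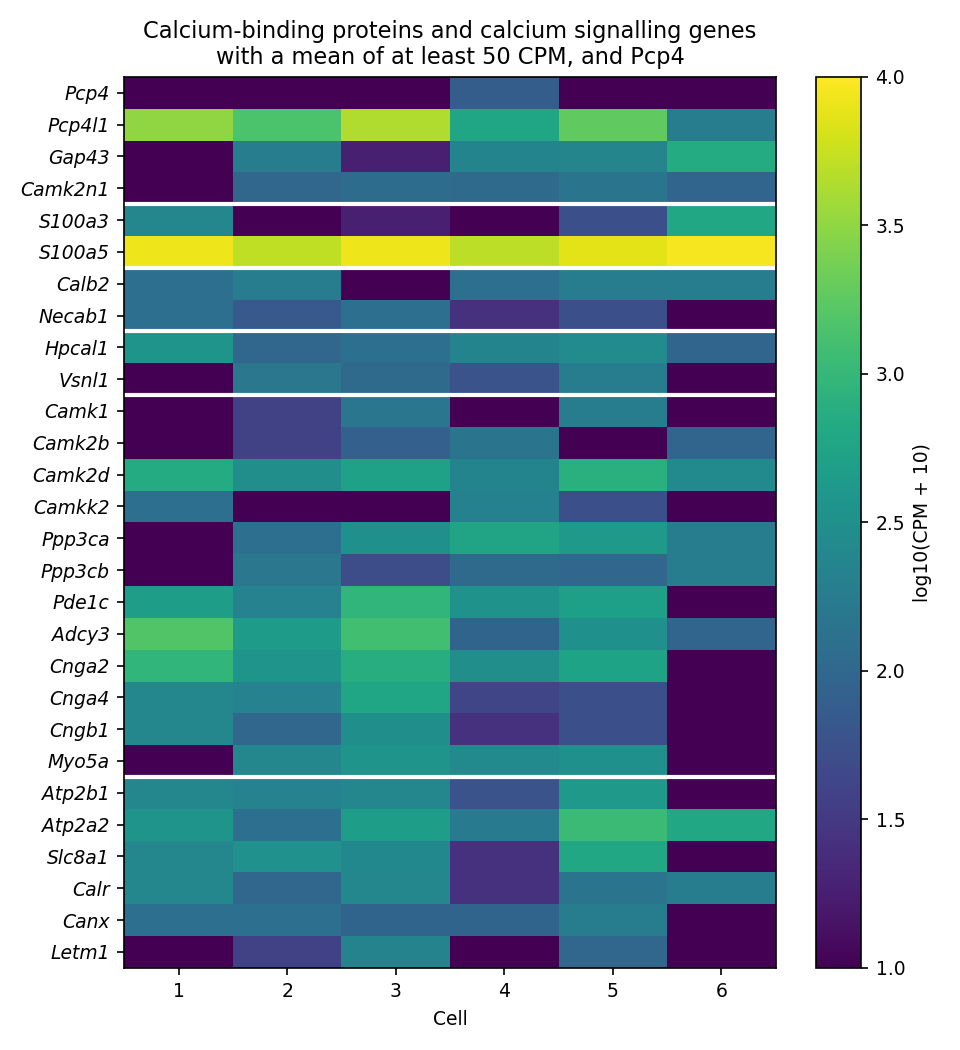
Level of 28 genes in the 6 cells as log10 of CPM plus 10, for genes averaging 50 CPM or more and Pcp4. The 6 groups from top to bottom are calmodulin-binding peptides and relatives, S100 family, buffers, calcium sensors, calmodulin targets, and pumps, exchangers and release genes. Calm2 and Calm3 are not shown. S100a5 is high in every cell, Pcp4l1 fades in cells 4 and 6, and Calb2 is dark in cell 3.

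Among 8 genes described as changing with the activity of olfactory neurons, a list that includes S100a5, Pcp4l1 and Calb2, all 8 had a count and 4 were counted in every cell. Kirrel2, an adhesion molecule of olfactory axons, had 464, 464, 2464, 82.1, 1554 and 682 CPM. It was highest in cell 3 and lowest in cell 4, 30.02-fold apart (12.7 to 93.1). Kirrel2 and Pcp4l1 were the 2 called apart of the 4 that averaged 200 CPM or more (33.7% of all such genes). Cells 3 and 4, which have the same leading receptor, thus differed in the same direction in Kirrel2, Pcp4l1 and S100a5. Calb2 (0 against 115 CPM) and Kirrel3 (0 against 65.7 CPM) went the other way. In cell 6, by CPM, Kirrel2 (682, with a median of 573 over the cells) and S100a5 (9126, with a median of 7875) were above their medians while Pcp4l1 was at its lowest. Both were below their medians with TMM (434 against 517 scaled counts for Kirrel2 and 5800 against 6394 for S100a5) and with DESeq2's size factors (399 against 505 and 5330 against 6705). Sema7a, a guidance protein, had 697, 203, 555, 312, 355 and 171 CPM.

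Genes whose log2 levels followed a member most closely over the 6 cells were sought among the 681 genes averaging 200 CPM or more and counted in at least 4 cells. For Pcp4l1 they were Galnt17 (r 0.99), the olfactory chloride channel gene Ano2 (0.97) and Ncoa1 (0.97), all of which had no count in cell 6. For S100a5 they were the kinase gene Snrk (0.94), Prkacb (0.93), a catalytic subunit of protein kinase A, and the transcription factor gene Atf4 (0.90). For Calm2 they were Atp5g3 (0.96), Rps7 (0.95) and Gm42418 (0.95). For Calm3 they were Sf1 (0.98), Eif4g2 (0.97) and Top2b (0.97), again all without a count in cell 6. With so many genes and 6 points, values of this size describe these libraries only.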

How the data were processed

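Per the labels, each of 6 single neurons gave 1 CEL-Seq2 library with unique molecular identifiers, with alignment of read 2 alone. Tools named in the submitters' processing notes are Bowtie2 2.3.4, CASAVA and HTSeq, and the build is mm10. The authors deposited raw counts per gene symbol for 55341 genes, and no column was unused. The sources used here do not give the strand setting or say whether reads with one identifier were collapsed, so a count may be a read or a molecule and intervals may be too narrow.

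CPM used all counts of a cell. Intervals are exact 95% Poisson, Clopper-Pearson for shares and conditional binomial for ratios (Python 3.11.15, scipy 1.17.1). Scripts were tested on simulated data. All symbols matched GENCODE M21 (GRCm38). The labels name no animals, so the cells are 1 group and no test was made. TMM (edgeR 4.0.16) and DESeq2 1.42.0 served for scaling only. Named genes were all members, up to 4 genes of highest median CPM per list and those called apart, and the 3 genes of highest r per member with at least 30 counts. Camk2b, Camkk2, Ppp3ca and the remaining low genes named beside a count were chosen after their values were seen. The 9 members and the 17 gene lists were chosen with earlier results of these data known. Some planned results are not reported here.
Alternatives were 4 other scalings, other filters, fold limits, pseudocounts and detection limits, and each cell left out. Leaving out cells 1 and 6 was added after seeing the data.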

Additional observations from a re-analysis of the deposited data

Results flagged for a closer look

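Of 7 genes tested for a value far from the other 5 cells, 2 had one, by Dixon's ratio of the gap to the nearest cell over the whole range (judged at its 95% limit). Chance alone flags about 1 in 20 groups of normal values of equal precision. Low counts at unequal depth are not such values, so that rate need not hold here. Pcp4 in cell 4 was at 65.7 CPM from 4 counts, with all other cells at 0, so its ratio was 1. Calb2 in cell 3 was at 0 CPM, with a ratio of 0.647 and all other cells between 115 and 178 CPM. The ratio takes no account of depth, and these cells hold between 1 and 7 counts of Calb2. Cell 3 is the deepest library, and cell 4 is the next deepest.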

How the results depend on the processing

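Of 9 genes, 3 were counted in every cell, against 1 at 10 counts, 2 at 3 counts, and 3 to 4 with each cell left out in turn. With cells 1 and 6 (under 20000 counts) left out, an alternative added after seeing the data, 5 were. The 1 member called apart became 2 with TMM (45.2% of all genes) and 3 with DESeq2's size factors (54.6%). It became 2 at a 2-fold limit (51.2%), 2 with a filter of 50 CPM (15.9%) and 2 without a filter (5.29%). The last 2 settings added Calb2. The number stayed at 1 without mitochondrial counts (33% of all genes) or gland and red blood cell counts (33%). It also did so at an 8-fold limit (17.9%) and with any cell left out. The 9 calls of a member 2-fold from the other cells became 17 with DESeq2's size factors, 15 without a filter and 5 with cells 1 and 6 left out. With each cell left out in turn they ranged from 5 (without cell 6) to 9. The shares of all genes moved as well. With DESeq2's size factors the share above went from 14.4% to 46.3% in cell 3 and from 21.4% to 3.38% in cell 1. No share of all genes is given for the settings without a filter or with cells left out. These numbers are therefore not read as a result about the members. The median Calm2 share of the Calm2 and Calm3 counts, 77.4%, ranged from 75.4% to 79.5% with each cell left out. By Spearman's rho 5 of the 12 genes of closest pattern remained.

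TMM shifted the median of all genes by between -0.65 and 0.54 on the log2 scale, and DESeq2's size factors by between -0.84 and 0.91. The ratio of highest to lowest cell moved for Calm2 from 2.64 to 4.46 (TMM) and 4.95 (DESeq2), with cell 6 then lowest. For Pcp4l1 it was 18.4 without cell 3 and 7.54 without cell 6. The cause was not tested. No paired analysis was possible because there is 1 group of cells.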
